A study of Rattus norvegicus with 17 samples.

Results

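The 4 remnant kidneys with the highest expression of Slc3a1, chosen by that measured value, were set beside the NoOp control kidneys, to describe which transcript differences were present while this proximal tubule gene was still highly expressed. Slc3a1, a subunit of the cystine and dibasic amino acid transporter of the proximal tubule brush border, was used only to choose the libraries. Of 17 libraries, 12 are labelled SNx and 5 NoOp, each with a sample number of its own, and the 4 were taken from the 12. In SNx (sub-total nephrectomy), most of one kidney of a male Wistar Han rat was resected and the other kidney was removed later, so that a remnant carries the whole load. The labels call the controls NoOp, while the methods describe unoperated rats in one experiment of the study and sham-operated rats in another. The labels do not say which these are. By the methods, the experiment with unoperated rats had fewer rats than there are libraries here. The number of NoOp libraries equals that of the sham-operated rats in the other, so these controls may be sham-operated despite their label. Rats were culled at differing times, on reaching limits of serum creatinine or proteinuria. The paper adds that in the experiment with sham-operated rats only some operated rats reached them, fewer than the 12 SNx libraries here. Which libraries came from rats that reached the limits is not given. The labels give for no library the age, the time since surgery, the serum creatinine or the proteinuria. "Mildest" therefore refers to transcripts alone, and no measure of kidney function stands behind it.

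In SNx 11, 4, 9 and 2, in that order, Slc3a1 was 11.22, 11.12, 11.07 and 10.52 log2 CPM. This unit is read counts scaled to library size and to TMM factors, which adjust for differing composition, on the log2 scale. The next libraries, left out, were SNx 12 at 10.22 and SNx 3 at 10.14, so that SNx 2 lay close to the limit of the choice. The NoOp libraries lay between 11.67 and 12.04, above all 4. Total counts of SNx 2, 4, 9 and 11 were 25252400, 28452364, 30784070 and 21865713, against 30454170 to 43876369 in NoOp. SNx 2 and SNx 4 carry sample numbers below those of the NoOp libraries, and SNx 9 and SNx 11 carry numbers above them. What those numbers stand for is not given.

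The proximal tubule reabsorbs most filtered solute through transporters in its brush border, and it feeds this work by oxidising fatty acids and making glucose. An injured tubule is known to lower these programmes and to express secreted injury proteins, while the interstitium gains leukocytes and matrix. In bulk tissue, fewer cells of a type and less RNA per cell cannot be told apart.

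Because a measured value chose the 4 libraries, the values below describe them and no test was made between them and any others. A gene is called higher or lower where all 4 libraries lay outside the range of the 5 NoOp libraries, and shifted where the means also differed by at least 2-fold. Over 15437 genes, 2717 (17.6%) were higher and 1909 (12.4%) were lower without overlap. Shifted genes were 1337 upward (8.66%) and 239 downward (1.55%). The other 8 SNx libraries, beside the same controls, had 1863 (12.1%) and 1308 (8.47%) shifted genes. The median difference over all genes was -0.00073 in the 4 and 0.02 in the 8. The labelled groups, all 12 SNx against the 5 NoOp, were tested with edgeR, and 4672 genes rose (30.3%) and 4276 fell (27.7%) at an FDR below 0.05, Slc3a1 left out. With library size alone as the scale, and Slc3a1 counted, 7044 genes rose and 2403 fell. Symbols were available for 1996 of the genes, mostly ones that the study had listed as significant. Among these the backgrounds were therefore higher, 44.7% and 27.0% without overlap, and 26.3% and 4.81% shifted. In the other 8, 37.8% and 29.9% of these genes were shifted, and in the labelled comparison 53.5% rose and 40.5% fell. Each count of list members below stands against these shares. A list member is called measured here only where it had such a symbol. Members without a symbol were left out, whether or not they had reads. Of the 23 gene lists, 13 had under 80% of their members measured in this sense. Their counts cover only part of the list, mostly the part that the study had listed as significant.

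**Figure D1:**
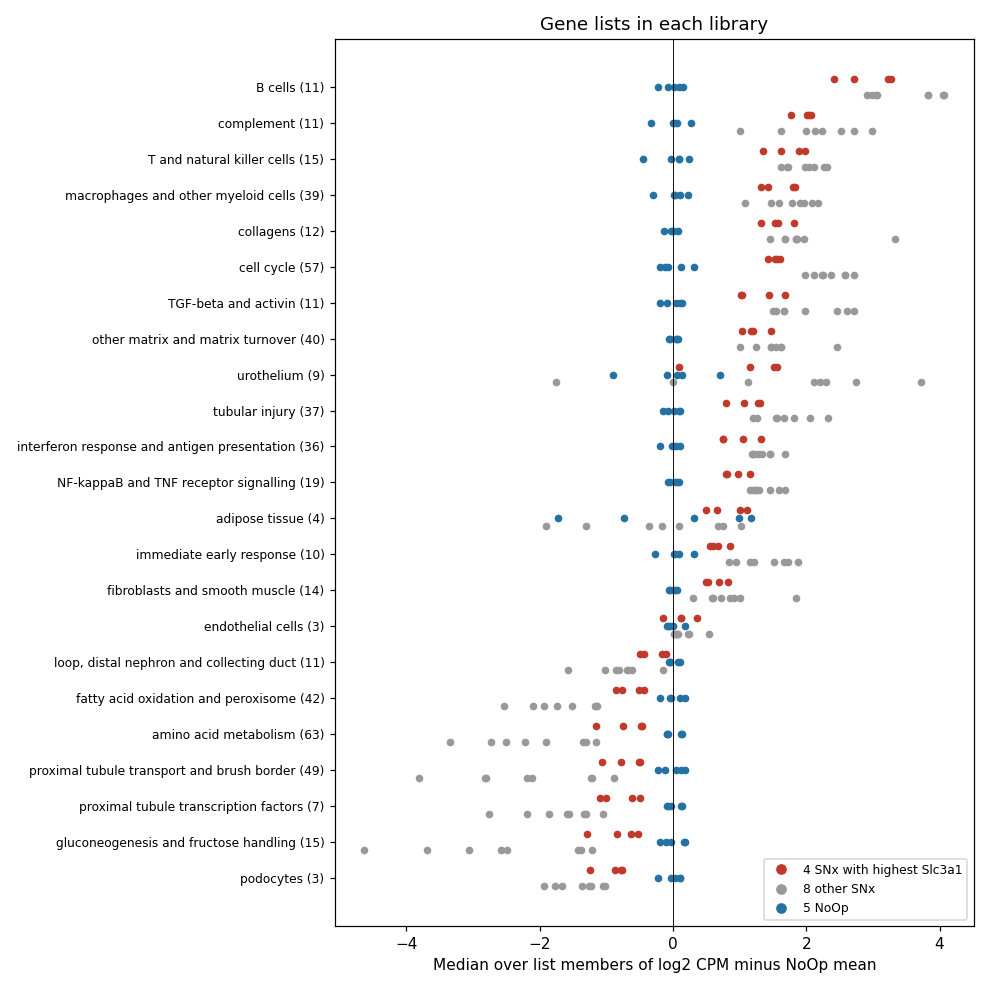
Median over the members of each gene list of log2 CPM minus the NoOp mean, 1 point per library, with the number of members measured in parentheses. In the 4 chosen libraries the metabolic and transport lists sat below 0 but above most of the other 8 SNx libraries, whereas the myeloid and complement lists lay among the other 8.

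Proximal tubule transport and brush border genes had a median difference from NoOp of -0.72 on the log2 scale (1.64-fold lower) in the 4 libraries, beside -2.13 (4.39-fold lower) in the other 8. Of 49 members measured, 26 lay below all NoOp libraries, 10 of them by at least 2-fold, 22 overlapped NoOp and 1 lay above. Since these genes belong to the cells that the choice was made on, their level is tied to the choice and is given as a check of the label. Summed over the list, the 4 libraries reached 17381 to 22762 CPM, below the 29255 to 35627 of NoOp, and the other 8 reached 3009 to 17321. No member was without counts in any of the 4.

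Megalin (Lrp2), the endocytic receptor for filtered protein, was 12.31, 12.38, 12.23 and 12.48 log2 CPM in SNx 2, 4, 9 and 11, against 12.80 to 13.07 in NoOp. Slc34a1, the main sodium-phosphate cotransporter, was 11.06, 11.74, 11.30 and 11.76, against 11.85 to 12.39 in NoOp, with SNx 4 and SNx 11 close to the lowest control. In both genes all 4 libraries were below NoOp, by less than 2-fold on average. The difference was largest for Slco1a1, an organic anion transporter, at 5.37, 7.28, 6.57 and 6.79 against 7.51 to 8.42. SNx 2 was the lowest of the 4 there and widened the difference. The mean difference was -1.37 (SD of the 4 libraries 0.81, n = 4) beside -5.60 in the other 8. Folh1, a brush border carboxypeptidase, differed by nearly as much, -1.34, and the nucleoside transporter Slc28a1 by -1.27. The single member above NoOp, named here after its values were seen, was Slc2a2, the basolateral glucose transporter, at 5.99 to 6.43 against 4.56 to 5.81. Among all 12 SNx libraries 43 of the 49 members fell and 1 rose (edgeR, FDR below 0.05).

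**Figure D2:**
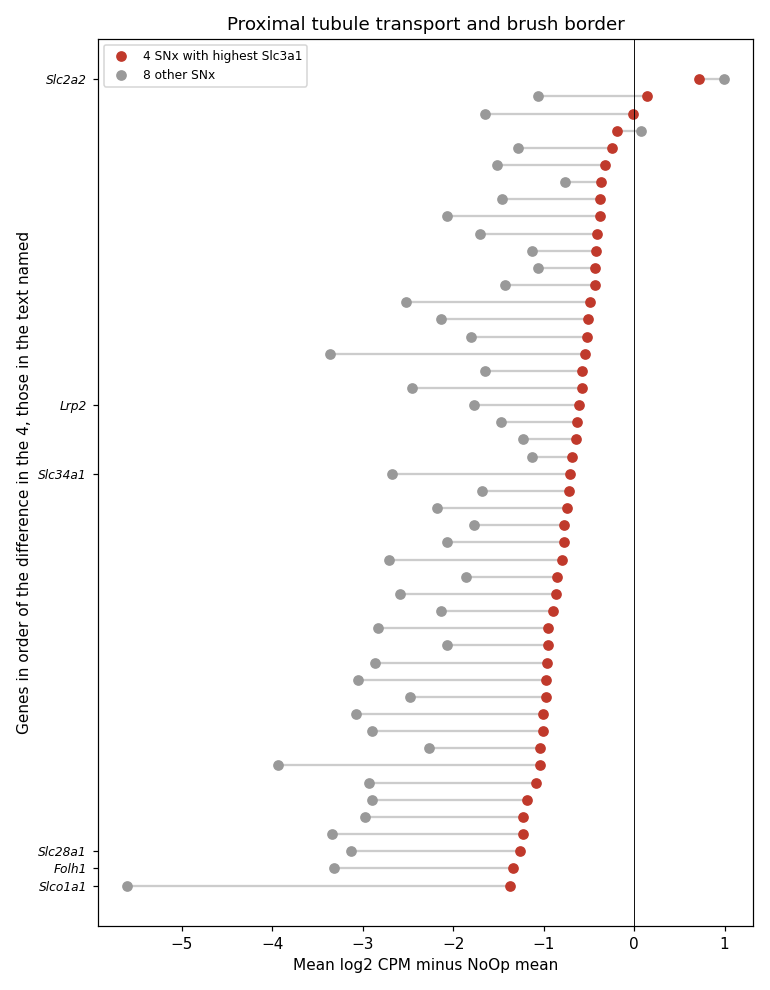
Difference of mean log2 CPM from NoOp for measured genes of the proximal tubule transport and brush border list, 1 row per gene and genes not reported here left out, in the 4 chosen libraries (red) and the other 8 SNx libraries (grey), with names for the genes described in the text. Slco1a1 differed by -1.37 in the 4 and by -5.60 in the 8, and Slc2a2 was above 0 in both.

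All 7 proximal tubule transcription factors measured were below every NoOp library, with a median difference of -0.78. Hnf4a, a nuclear receptor that maintains the proximal tubule programme, was 9.35, 9.95, 9.65 and 10.03 log2 CPM in SNx 2, 4, 9 and 11 against 10.43 to 10.66. SNx 2 was the lowest of the 4, and none reached the NoOp range. Klf15 differed by -1.03, the only 1 of the 7 to pass 2-fold.

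Metabolic genes were lower too. Bulk libraries do not show which cells these transcripts came from, and where it was the proximal tubule their level is tied to the choice in the same way. Of 15 gluconeogenesis and fructose genes 13 lay below NoOp, with a median of -0.84, and Pck1, which commits carbon to glucose synthesis, had the largest difference. Its values were 10.86, 10.95, 10.48 and 11.22 against 12.25 to 13.00, a 3.08-fold lower level with no library near the control range. The fructose enzymes Khk and Tkfc differed by -1.12 and -1.13. Of 42 fatty acid oxidation and peroxisome genes 25 were below NoOp (median -0.64) and 4 were shifted (9.52%, beside 4.81% of all genes with a symbol), among them Acsm3, a medium-chain acyl-CoA synthetase, at -1.96. Catalase (Cat), below 2-fold, differed by -0.72. Of 63 amino acid metabolism genes 43 were below NoOp (median -0.71), but only 4 were shifted (6.35%), close to the same background. Of these Dmgdh differed by -1.33, Mat2a by -1.32. Gatm, the first enzyme of creatine synthesis, differed by -0.94. Glul, the most abundant gene of the list, differed by only -0.26 and overlapped NoOp, though not once SNx 11 was left out. In the labelled comparison all 15, all 42 and all 63 measured members of these lists fell (edgeR, FDR below 0.05).

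Tubular injury genes were higher in the same 4 kidneys, with 27 of 37 members above all NoOp libraries and 19 shifted (median 1.04, against 1.71 in the other 8). Osteopontin (Spp1), a secreted phosphoprotein made by stressed tubules, was 12.49, 11.56, 11.76 and 11.26 log2 CPM in SNx 2, 4, 9 and 11, against 7.82 to 8.94 in NoOp. The mean level was 11-fold higher, and SNx 2 was the highest of the 4. Lcn2, which encodes the injury marker NGAL, was 6.29, 5.02, 5.84 and 4.94 against 1.14 to 1.96, a 15.7-fold higher mean. Clusterin (Clu) differed by 2.96 and stood at 9.04 to 9.81 against 6.33 to 6.55. Pigr, which carries immunoglobulin A across epithelia, overlapped NoOp, at 9.18 to 9.30 against 9.19 to 9.65. Of the 37, 34 rose and 1 fell in the labelled comparison.

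Matrix genes were also higher. Of 12 collagens 11 lay above NoOp and 10 were shifted, with a median of 1.59 in the 4 and 1.87 in the other 8. Col1a1, the chain of interstitial type I collagen, was 9.73, 9.26, 8.94 and 9.21 against 6.47 to 6.68, a 6.64-fold higher mean. Col8a1, a short-chain collagen, differed by 3.23 and Col15a1 by 2.56. The basement membrane chains Col4a1 and Col4a2 differed by 1.22 and 1.09. Among 40 other matrix and matrix turnover genes 32 were above NoOp, 24 of them shifted, and 3 below (median 1.14). Fibronectin (Fn1) was 9.74, 9.01, 9.27 and 8.92 against 7.38 to 7.88. The protease matrilysin (Mmp7) had 71, 68, 359 and 52 counts in SNx 2, 4, 9 and 11, and at most 2 counts in any NoOp library. Its level was at least 44.9-fold higher than 3 counts in a NoOp library, and at least 23.8-fold without SNx 9. SNx 9 stood well above the others for Mmp7 and for tenascin N (Tnn). All 12 collagens and 35 of the 40 other genes rose in the labelled comparison, in which 3 of the 40 fell.

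Of 11 TGF-beta and activin genes 9 were above NoOp, 8 of them shifted, and 1 below (median 1.32). Ltbp2, a fibrillin-binding matrix protein, was 8.05, 7.31, 7.0 and 7.20 against 3.46 to 4.41. Inhba, the activin A subunit, differed by 2.89. Pmepa1, a feedback inhibitor of the pathway, overlapped NoOp at 5.90 to 6.50 against 5.67 to 6.35. Of the 11, 10 rose and 1 fell in the labelled comparison.

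Leukocyte genes were higher in these 4 libraries. Of 39 macrophage and myeloid genes 38 were above NoOp and 37 shifted, with medians of 1.62 and 1.75 in the 4 and the 8. Gpnmb, a lysosomal glycoprotein of phagocytes, was 7.45, 5.16, 5.62 and 6.21 against 1.38 to 2.67. Csf1r, the receptor for macrophage colony stimulating factor, was 7.17, 6.88, 6.91 and 6.68 against 5.30 to 5.80. The low-affinity Fc receptor Fcgr2b differed by 3.71 and Itgad by 3.08. Summed over the list, the 4 libraries reached 848 to 1348 CPM and NoOp 262 to 379.

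Of 15 T and natural killer cell genes 13 were above NoOp, all of them shifted (medians 1.76 and 1.87). The T cell receptor chain Trbc2 was 3.21, 3.22, 3.39 and 2.80 against 0.04 to 1.14, and the adhesion molecule Cd2 differed by 2.44. Of 11 B cell genes 10 were above NoOp and 9 shifted (medians 3.06 and 3.71), though most were low. With at least 10 counts in every library only 5 of the 11 remained, and their median in the 4 was 1.11. Blk, a B cell kinase, was 1.5, 1.82, 1.63 and 1.45 against -2.48 to -0.76. Blnk, the most abundant of the list, overlapped NoOp at 5.06 to 5.79 against 5.0 to 5.22. In the test of all 12 libraries 38 of 39 myeloid, 14 of 15 T and natural killer and 11 of 11 B cell genes rose.

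Complement genes had a median of 2.13 in the 4 and 2.04 in the 8, with 10 of 11 above NoOp and 9 shifted. The value at the median of the 4 was that of Cfd, complement factor D, the member that overlapped NoOp, at 2.40 to 3.67 against -1.80 to 3.05. The median was 1.93 over the 10 members that kept 10 or more counts in all libraries, 1.96 without SNx 2 and 1.68 without NoOp 1. C4a was 11.16, 10.37, 10.71 and 9.96 against 7.67 to 8.20, although reads of C4 genes can be shared between near-identical copies. Cfi, the protease that inactivates C3b, differed by 2.90. Clu also stands in the injury list, the C1q chains in the myeloid list and Cfd in the adipose list, and Mmp7 and Timp1 stand in both the injury and the other matrix list, so these lists are not independent.

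Interferon and antigen presentation genes were above NoOp in 31 of 36 cases, 17 of them shifted (median 1.02). Irf8, a transcription factor of myeloid cells, was 6.32, 6.26, 6.15 and 5.86 against 4.03 to 4.43. Psmb8, an immunoproteasome subunit, was 5.33, 4.90, 5.38 and 4.88 against 3.39 to 3.67. RT1-DOa, a class II gene of a multigene family, differed by 2.10, and the counts of such a family are uncertain. B2m overlapped NoOp through SNx 4 alone, at 8.11 to 8.73 against 7.48 to 8.39. Of 19 NF-kappaB and TNF receptor genes 16 were above NoOp, 8 of them shifted, and 2 below (median 0.91). Birc3, an inhibitor of apoptosis, differed by 2.15, Nfkbiz by 1.79 and Bcl3 by 1.63, whereas the death receptor Tnfrsf21 differed by -0.58. Of these lists 35 of 36 and 16 of 19 members rose in the labelled comparison, in which 2 of the 19 fell.

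Members of 3 lists that were higher together have upstream sequences in the RefSeq promoter table (build GRCr8), of which 160 bases before the transcript start are shown, 5′ to 3′ along the gene. They were picked after the search because they hold a match, and capitals mark it. In Tap1 and Psmb10 the capitals mark GAAANNGAA, an interferon regulatory factor motif, which occurs in Psmb10 at overlapping positions. In Tap1 they also mark GGGANTTTC, an NF-kappaB motif. In Nfkbiz and Tnfaip3 they mark the NF-kappaB motif, and in Espl1 and Cdk1 TTTGAA, the core of the cell cycle homology region. Either strand was accepted. The windows are chr20:4668544-4668703 (minus strand), chr19:50743293-50743452 (minus), chr11:58251561-58251720 (plus), chr1:15543980-15544139 (minus), chr7:135302556-135302715 (plus) and chr20:19265133-19265292 (plus), in that order.
Tap1: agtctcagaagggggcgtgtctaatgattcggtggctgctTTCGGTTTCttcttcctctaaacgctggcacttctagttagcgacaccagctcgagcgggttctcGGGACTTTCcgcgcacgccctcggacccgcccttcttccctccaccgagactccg
Psmb10: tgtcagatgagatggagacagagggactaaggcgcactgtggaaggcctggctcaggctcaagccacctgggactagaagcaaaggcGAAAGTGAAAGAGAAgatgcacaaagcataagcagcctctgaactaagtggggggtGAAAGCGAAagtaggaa
Nfkbiz: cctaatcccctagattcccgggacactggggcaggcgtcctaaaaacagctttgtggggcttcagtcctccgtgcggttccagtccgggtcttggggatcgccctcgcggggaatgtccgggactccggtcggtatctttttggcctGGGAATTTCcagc
Tnfaip3: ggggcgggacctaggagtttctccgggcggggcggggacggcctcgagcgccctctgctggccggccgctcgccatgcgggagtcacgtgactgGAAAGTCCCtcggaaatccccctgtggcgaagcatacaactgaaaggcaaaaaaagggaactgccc
Espl1: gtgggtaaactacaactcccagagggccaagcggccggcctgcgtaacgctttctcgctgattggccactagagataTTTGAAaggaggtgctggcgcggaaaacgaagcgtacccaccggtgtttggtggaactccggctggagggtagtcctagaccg
Cdk1: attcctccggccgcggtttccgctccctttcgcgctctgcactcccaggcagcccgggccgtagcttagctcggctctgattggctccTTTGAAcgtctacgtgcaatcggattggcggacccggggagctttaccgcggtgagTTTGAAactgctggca

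Over windows of 300 bases, GAAANNGAA was held by 14 of 30 promoters of the interferon and antigen presentation list (46.7%), against 9.71% of all 33469 promoters, and by 11 of 26 of the myeloid list (42.3%). GGGANTTTC was held by 3 of 15 promoters of the NF-kappaB list (20%), against 1.15% of all. TTTGAA was held by 28 of 49 promoters of the cell cycle list (57.1%), against 18.3% of all. The AP-1 motif TGANTCA was held by 2 of 27 promoters of the other matrix list (7.41%), 5 of 26 of the injury list (19.2%), 5 of 26 of the myeloid list (19.2%) and 5 of 15 of the NF-kappaB list (33.3%), against 7.33% of all. These motifs and lists were picked from the 10 motifs searched in all lists, and other pairs also stood above their shares. The C/EBP motif TTGCNNAA was held by 7 of 26 injury promoters (26.9%), against 10.6% of all. The HNF4 motif CAAAGTCCA was held by 3 of 57 amino acid metabolism promoters (5.26%), against 0.391% of all. Other pairs did not, such as GGGANTTTC in 0 of 26 injury promoters. These are descriptions of letters and not of binding. In the 4 libraries Tap1, a peptide transporter, differed from NoOp by 1.10, Psmb10 by 1.29, Nfkbiz by 1.79, Tnfaip3 by 1.20, Espl1 by 2.52 and Cdk1 by 1.93.

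Cell cycle genes were above NoOp in 52 of 57 cases, 45 of them shifted, with a median of 1.52 in the 4 and 2.35 in the other 8. Espl1, the protease separase, was 2.0, 2.24, 2.15 and 1.82 against -0.89 to 0.19. Cdca7 was 2.79, 2.14, 2.37 and 1.78 against -0.37 to 0.12. The 4 libraries were close to each other for this list, with medians between 1.43 and 1.61. Kifc1, a mitotic kinesin, went the other way and had the highest CPM of the list, at 4.53 to 5.63 against 5.68 to 6.42. Of the 57, 56 rose in the labelled comparison and Kifc1 fell. Among 10 immediate early genes 6 were above NoOp, and the 3 shifted (30%) were close to the background of 26.3%. Egr2 was 2.54 to 3.49 against -1.36 to 0.40, and Jund overlapped NoOp through SNx 9 alone.

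Markers of other cell types differed in direction within their lists. Of 14 fibroblast and smooth muscle genes 9 were above NoOp and 1 below (median 0.62), and the 4 shifted upward (28.6%) were close to the background of 26.3%. The filamin Flna was 9.46 to 9.74 against 8.36 to 8.72. Of 10 listed podocyte genes 3 had a symbol, of which 2 lay below NoOp, Ddn (-1.73) and Ptpro (-0.92), and 1 overlapped. In the labelled comparison 2 of the 3 fell and 1 rose. Of 12 listed endothelial genes 3 had a symbol. Sema3g was below NoOp (-1.23), Cav1 above (0.38) and Notch4 overlapped. Summed, the endothelial list reached 352 to 423 CPM in the 4 and 669 to 836 in NoOp, and Sema3g was its most abundant gene. Among 11 genes of the loop, distal nephron and collecting duct 3 were above and 4 below NoOp (median -0.36), with sums of 1094 to 1345 CPM against 1453 to 1580. The proton pump subunit Atp6v0a4, the most abundant of them, was 8.28 to 8.74 against 8.95 to 9.18, and the calcium-binding protein S100g differed by -1.30. Trpv6, an epithelial calcium channel, was 4.45, 2.82, 3.63 and 3.20 against -1.20 to -0.56, and Trpv5 differed by 0.97. In the labelled comparison 7 of the 11 fell and 4 rose. Of 9 urothelial genes 2 were above NoOp and 7 overlapped (medians 1.13 in the 4 and 1.86 in the 8), with sums of 105 to 193 CPM against 90.4 to 130 and Ppl as the most abundant gene. In the labelled comparison 7 of the 9 rose. The basal keratin Krt5 ranged from -0.06 to 2.30 against -2.46 to 1.69. Of 4 adipose genes 1 was above and 3 overlapped, with sums of 59.7 to 87.4 CPM against 42.6 to 130 and Cidec as the most abundant gene. The fat cell lipid carrier Fabp4 ranged from 0.19 to 5.41 in NoOp alone. How far tissue taken with the remnant adds to these values was not tested.

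**Figure D3:**
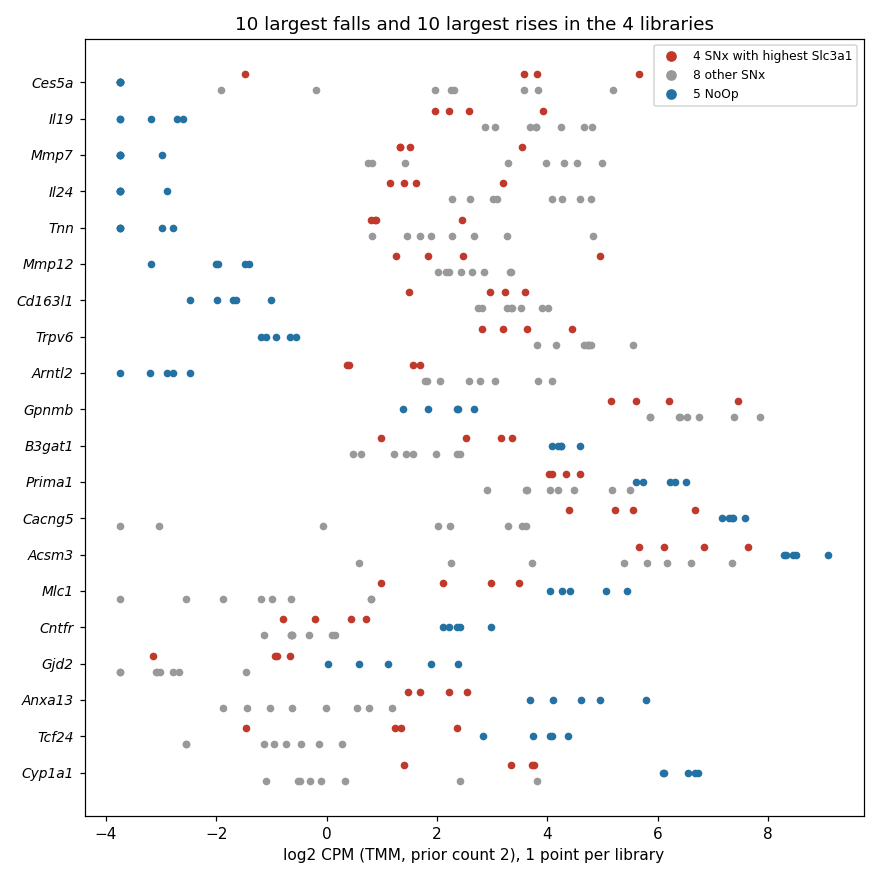
Values of log2 CPM (TMM-scaled, prior count 2) in each library for the 10 genes with the largest differences upward and the 10 with the largest downward between the means of the 4 chosen libraries and NoOp, among genes with a symbol, no overlap between these groups and a mean of at least 1 log2 CPM in the higher one. Red points do not overlap blue points in any of the 20 genes, by this choice, and the spread among the 4 was widest for Ces5a, from -1.47 to 5.66.

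Among genes with a symbol that did not overlap NoOp and whose higher group averaged 1 log2 CPM or more, the largest differences upward were in Ces5a, Il19, Mmp7, Il24, Tnn, Mmp12, Cd163l1, Trpv6, Arntl2 and Gpnmb. Il19, a cytokine of the interleukin-10 family, had 388, 128, 183 and 82 counts in SNx 2, 4, 9 and 11 and at most 3 in a NoOp library, at least 68.8-fold higher than 3 counts. Il24, a related cytokine, had 233, 60, 93 and 55 counts against at most 2, at least 39.3-fold higher. Both were highest in SNx 2, and without it the bounds were 44.6-fold for Il19 and 24-fold for Il24. Mmp12, macrophage elastase, was 4.96, 1.26, 1.84 and 2.47 log2 CPM against -3.19 to -1.40, again led by SNx 2. Cd163l1, a scavenger receptor, was 3.60, 3.24, 1.49 and 2.97 against -2.48 to -1.0. The clock gene paralog Arntl2 was at least 19.9-fold higher than 3 counts.

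Under the same limits the largest differences downward were in Cyp1a1, Tcf24, Anxa13, Gjd2, Cntfr, Mlc1, Acsm3, Cacng5, Prima1 and B3gat1. Cyp1a1, the cytochrome induced through the aryl hydrocarbon receptor, was 1.40, 3.77, 3.73 and 3.34 log2 CPM against 6.10 to 6.74, a 10.4-fold lower mean with SNx 2 lowest. Anxa13, an epithelial annexin, was 1.48, 1.69, 2.22 and 2.55 against 3.69 to 5.80. Cntfr, the ciliary neurotrophic factor receptor, was -0.79, 0.44, 0.72 and -0.20 against 2.12 to 2.97. Prima1, which anchors acetylcholinesterase in membranes, differed by -1.82 in the 4 and -1.89 in the other 8. Among genes without a symbol, ENSRNOG00000028896 and ENSRNOG00000007243 differed by 5.84 and 5.59, and ENSRNOG00000022483 and ENSRNOG00000056476 by -4.12 and -4.11. The difference of ENSRNOG00000022483 was -3.47 without SNx 2 and -5.13 without SNx 11.

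Some genes differed from NoOp in the other 8 libraries but overlapped it in the 4, a pattern that the choice of libraries favours for tubular genes. Tmigd1, a brush border adhesion protein, was 4.26, 5.03, 4.74 and 4.96 log2 CPM in SNx 2, 4, 9 and 11 against 4.60 to 5.26 in NoOp, and -1.91 to 3.59 in the 8. The trefoil peptide Tff3 was 6.46 to 7.85 against 7.68 to 8.87, and 0.73 to 6.57 in the 8. Cabp7 and Spata22 had the same pattern, and Tmigd1 did not pass the test in the labelled comparison (edgeR, adjusted p = 0.15). Among genes higher in the 8, Foxp3, the regulatory T cell factor, was 1.40, 0.01, 0.98 and -0.66 against -2.72 to -0.55, and 1.47 to 2.95 in the 8. Slfn13, Syt8, Cenpt and Ypel4 also overlapped NoOp in the 4. Apart from Tmigd1 and Ypel4, the overlap of each of these genes ended when 1 library was left out. For Tff3 it rested on NoOp 1, without which NoOp began at 8.64, or on SNx 11, and for Foxp3 and Slfn13 on NoOp 3 or SNx 11. For Cenpt it rested on NoOp 1 or SNx 2, for Cabp7 on NoOp 4 or SNx 4, for Syt8 on SNx 11 and for Spata22 on NoOp 1.

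**Figure D4:**
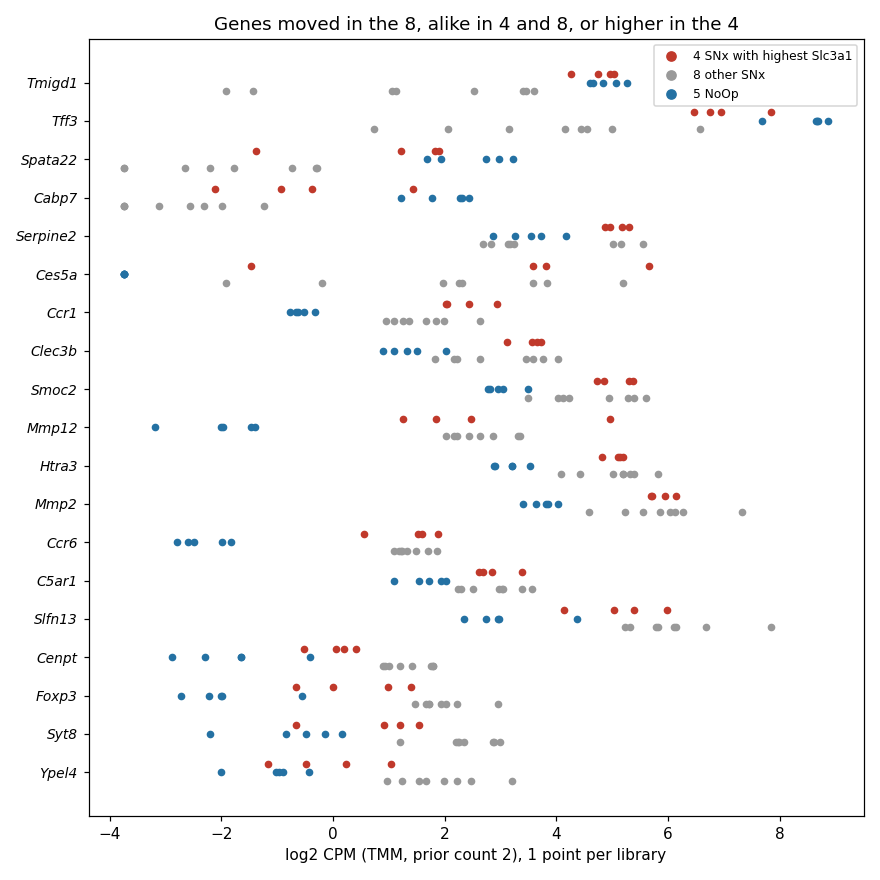
Values of log2 CPM in each library for genes that differed from NoOp in the other 8 SNx libraries and overlapped it in the 4, for genes shifted alike in both, and for genes that stood highest in the 4 relative to the 8. Tmigd1 in the 4 (4.26 to 5.03) overlapped the NoOp values (4.60 to 5.26), and Mmp2 in the 4 (5.69 to 6.13) lay among the other 8.

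Other genes differed from NoOp by about the same amount in the 4 as in the other 8. Mmp2, a gelatinase of fibroblasts, was 6.13, 5.70, 5.69 and 5.95 against 3.40 to 4.02 in NoOp, a difference of 2.13 in both sets. Htra3, a secreted serine protease, differed by 1.92 and 1.91, the chemokine receptor Ccr6 by 3.73 in both, the anaphylatoxin receptor C5ar1 by 1.22 in both and Mmp12 by 4.64 in both. Without SNx 2 the difference of Mmp12 in the chosen libraries was 3.87. Serpine2, protease nexin 1, stood highest in the 4 relative to the 8, at 5.29, 4.86, 5.17 and 4.96 against 2.87 to 4.18 in NoOp and 2.69 to 5.55 in the 8. Its log2 fold change over all 12 SNx libraries was 1.03 with an SE of 0.48 and an adjusted p of 0.075 (edgeR), so it did not pass. Clec3b, Smoc2 and Ccr1 followed it, with differences from NoOp of 2.15, 2.05 and 2.94 in the 4 beside 1.60, 1.62 and 2.18 in the 8. Ces5a, without a count in any NoOp library, was the fifth gene of this kind.

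The median SD of a gene among the 4 libraries was 0.19 log2 CPM, beside 0.17 among NoOp and 0.26 among the other 8. In SNx 2, 4, 9 and 11 the median difference of the injury list was 1.31, 1.06, 1.28 and 0.80, and that of the interferon list 1.32, 0.75, 1.04 and 0.75. SNx 2 was the highest of the 4 for both, and it was the lowest for the proximal tubule transport list, at -1.06 beside -0.51, -0.78 and -0.49. Leaving SNx 2 out gave 1278 shifted genes upward and 171 downward. SNx 2 and SNx 4, whose sample numbers lie below those of NoOp, gave 1572 and 374, and SNx 9 and SNx 11 gave 1349 and 221, all against the same 5 NoOp libraries. With library size alone as the scale, all genes moved up by 0.14 at the median and the shifted genes numbered 1559 and 133. Taking the 4 by the mean of the proximal tubule list gave the same 4 libraries, with SNx 2 at 6.96 and SNx 3, the next, at 6.95. By the median of the same list SNx 3 lay above SNx 2, at -0.89 beside -1.06, as it did for the transcription factors (-1.05 beside -1.10) and gluconeogenesis (-1.21 beside -1.30), and its injury median was 1.20 beside 1.31. By the medians of fatty acid oxidation (-1.14 beside -0.85) and amino acid metabolism (-1.16 beside -1.15) SNx 3 lay below SNx 2.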

How the data were processed

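Rat kidney RNA of 12 SNx and 5 NoOp samples was depleted of ribosomal RNA and sequenced paired-end from strand-specific libraries. The authors quantified transcripts against rn6, summarised them to genes with length scaling, and deposited gene-level estimated counts, which are whole in the files. Salmon and limma are named in the submitters' processing notes without versions. The voom-transformed log2 values that the authors deposited for 13318 genes were used as an alternative. The 34 columns of whole-series tables repeat the library tables and were not used. RNA integrity differed between samples and is not given per library, and its part in the results was not tested. Nothing in the labels says that each library came from a separate rat, and p-values measure only the spread between these libraries, which may in part be technical.

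In R 4.3.3 with edgeR 4.0.16, 15438 of 23487 genes passed filterByExpr, and log2 CPM used TMM factors and a prior count of 2. The 4 SNx libraries with the highest Slc3a1 were described without a test. The 12 SNx and 5 NoOp libraries were compared with the quasi-likelihood test (Benjamini-Hochberg adjustment, FDR below 0.05, two-sided), and SEs came from the fold change and F. Where no NoOp library exceeded 3 counts, a fold is a lower bound from the mean CPM of the 4 over the CPM of 3 counts. It covers counting error only. The step was tested on simulated data.

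The members, the 23 lists and the tests were chosen with earlier results of these data known. Symbols came from a supplementary table of the study, names only. Per list, up to 2 members by level and up to 3 by size of the difference were named (a split settled after values were seen), with the 10 largest differences each way (no overlap between the 4 and NoOp, and a mean of at least 1 log2 CPM in the higher group) and up to 5 of each further pattern. Some genes that this rule names are not reported here. Tap1, Psmb10, Tnfaip3, Cdk1 and Slc2a2 were named after their values were seen. Of 1996 symbols 1482 had a promoter, each reaching from 250 bases before to 50 after the start. The 10 motifs searched on both strands, overlaps allowed, were TGANTCA (AP-1), GGGANTTTC (NF-kappaB), CAAAGTCCA (HNF4), TNGCGTG (aryl hydrocarbon receptor), GAAANNGAA (IRF), TTCCNGGAA (STAT), TTGCNNAA (C/EBP), AGAGGAAGT (PU.1), TTTGGCGC (E2F) and TTTGAA (CHR), some of them shortened after a first search with longer forms. Alternatives used DESeq2 1.42.0, limma 3.58.1, other scalings, filters, prior counts, thinned counts and choices of libraries. Figures used matplotlib 3.10.9.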

Additional observations from a re-analysis of the deposited data

Results flagged for a closer look

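In 20 of 264 groups of 4 or 5 libraries 1 library stood apart from the rest of its group, beside 13.2 that chance gives at 1 in 20. Values are log2 CPM, and no cause was tested. Among the chosen libraries, SNx 2 stood apart for Col8a1 (6.13 against 5.56 to 5.64) and Gjd2 (-3.14 against -0.93 to -0.66). SNx 4 did so for Cd2 (2.17 against 2.48 to 2.52). SNx 9 did so for Mmp7 (3.54 against 1.32 to 1.5) and Tnn (2.45 against 0.81 to 0.90). SNx 11 did so for Krt15 (0.92 against 2.92 to 3.29). Among the controls, NoOp 1 stood apart for Tkfc (8.77 against 9.22 to 9.27), Cidec (5.02 against 5.75 to 6.04) and Tff3 (7.68 against 8.64 to 8.87). NoOp 2 did so for Bcl3 (3.39 against 3.75 to 3.81). NoOp 3 did so for Acsm3 (9.09 against 8.29 to 8.51) and Sema3g (9.45 against 9.11 to 9.21). NoOp 5 accounted for 8 of the 20, with Sparc (8.17 against 8.48 to 8.54), C4a (7.67 against 8.14 to 8.20), Il7r (-0.44 against 0.08 to 0.19), Pou2f2 (2.28 against 2.78 to 2.98), Flna (8.36 against 8.61 to 8.72), Cnn2 (3.42 against 3.74 to 3.85), Atp6v1a (8.20 against 8.38 to 8.39) and Ppl (6.74 against 6.39 to 6.46).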

How the results depend on the processing

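No paired analysis was possible because the labels carry no replicate numbers that SNx and NoOp libraries share. Beside 1337 shifted genes upward and 239 downward in the 4 libraries, library size alone gave 133 downward, a minimum of 10 counts in every library gave 882 upward and 148 downward over fewer genes, and the chosen libraries of the lower sample numbers, an alternative added after seeing the data, gave 374 downward. Leaving out 1 library at a time gave 1278 to 1490 upward and 171 to 330 downward. The labelled comparison had 4672 rises and 4277 falls with Slc3a1 counted. Library size alone gave 7044 rises and 2403 falls, as all genes moved up by 0.23 at the median, so that 74.6% of calls were rises in place of 52.2%. Leaving out 1 library at a time gave 4148 to 4882 rises and 3766 to 4556 falls, and the other scalings, filters and tools stayed within 1.5 times of both counts. The median of the B cell list was 1.11 over 5 genes with at least 10 counts, in place of 3.06 over 11. The median of the 3 endothelial genes turned to -0.021 with the chosen libraries of the upper sample numbers. Pigr and Fabp4, neither of which passed the edgeR test, changed sign. The log2 fold change of Pigr was 0.19 with library size alone and 0.0028 with at least 10 counts, and ranged from -0.063 to 0.0572 when 1 library was left out. That of Fabp4 was 0.078 with limma-voom and ranged from -0.92 to 0.10 when 1 library was left out. For changes other than those in scale and in the number of genes or libraries, the cause was not tested. Depth limits the bounds: 3 counts in a NoOp library stand for a level that genes such as Ces5a did not exceed.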

Other observations

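A group of genes known from the epididymis was picked after its values were seen. Ces5a, a carboxylesterase, had 1299, 8, 437 and 254 counts in SNx 2, 4, 9 and 11, and 0 in every NoOp library. Its mean level was at least 180-fold higher than 3 counts in a NoOp library, and at least 81.8-fold without SNx 2, which had the highest count. Crisp1, a secreted sperm-binding protein, had 64, 0, 16 and 17 counts in the same libraries and 0 in NoOp. Adgrg2, an adhesion receptor, was 3.43, -0.99, 2.15 and 1.12 log2 CPM against -2.35 to -1.13. The libraries had the same order for Ces5a and Adgrg2, with SNx 2 highest and SNx 4 lowest. The part of neighbouring tissue in these values was not tested.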
